A study of Graphilbum sp. with 6 samples.

Results

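Heat shock proteins and other molecular chaperones of the fungus Graphilbum sp. were followed by RNA sequencing in hyphae exposed to a fungus-feeding nematode. The genes were chosen by name alone: a row of the deposited table belonged to the set when its best database hit lay in Sporothrix, Grosmannia, Ophiostoma or Esteya, which are genera of the order Ophiostomatales, and its description held one of 8 chaperone keywords such as heat shock, chaperon, DnaJ or peptidyl-prolyl. This gave 41 genes of the 4613 with an Ophiostomatales hit, in a table of 26694 assembled features. Of these, 17 had their best hit in Grosmannia, 17 in Sporothrix and 7 in Ophiostoma. The keywords prefoldin, calnexin and protein disulfide matched 0 Ophiostomatales-hit rows, so those families are not described.

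Hyphae of 3 libraries met some 300 pine wilt nematodes (Bursaphelenchus xylophilus) over 24 h. The 3 control libraries carry the label 24 h and the title Control, read here as hyphae without nematodes. The fungus had first grown on potato dextrose agar (28 °C, 5 days), followed by washes of the mycelium in phosphate-buffered saline. Groups follow the sample titles, since all 6 libraries carry identical protocol text. The labels do not say whether nematodes were removed before RNA was extracted, or what made the replicates separate, so p-values measure the spread between these libraries. The comparison asks which fungal transcripts differ when the nematode is present.

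Chaperones bind unfolded or newly made proteins and keep them from aggregating. Hsp70, helped by J-domain proteins, takes up unfolded chains and can hand them through the adaptor Sti1 to Hsp90, and Hsp104 pulls proteins back out of aggregates. In fungi, the heat shock transcription factor drives many of these genes when proteins unfold, whether through heat or through other stress, and a parallel set serves the endoplasmic reticulum (ER), where secreted proteins fold.

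Values are rescaled TPM. TPM is a length-scaled share of all transcripts in a library, so it can be compared between genes, and each library was further divided by the median ratio over the Ophiostomatales-hit rows. This rescaling was needed because those rows held 28.7% to 39.4% of TPM in the nematode libraries and 68.5% to 70.0% in the controls. Features found in the nematode libraries alone took 39.9% to 53.7% of TPM there. TPM does not give the number of reads, so depth is unknown. In bulk hyphae, fewer cells of a kind and less RNA per cell cannot be told apart. Control replicate 3 stood apart: 118 of 4568 Ophiostomatales-hit genes tested (2.58%) were at least 2-fold higher in it than in every other library, against 2 to 11 genes for each of the other 5 libraries. Where its omission changes the call or the sign of a gene named here, both values are given.

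None of the 41 genes changed past the threshold. Each had at least 1 rescaled TPM in at least 3 libraries and was tested, and 0 were higher and 0 lower in the nematode libraries by limma at an adjusted p under 0.05. Among all 4568 genes tested, 0.613% were higher and 0.0438% lower. The smallest adjusted p of a member was 0.306 (limma). On TPM as deposited, without rescaling, 0 members were higher and 37 lower, where 0.583% of all Ophiostomatales-hit genes tested were higher and 82.8% lower. At an unadjusted p under 0.05, 4 members were higher and 5 lower, or 9.76% and 12.2% of the set, against 7.07% and 3.74% of all genes tested. The median log2 fold change of the set was -0.11, against -0.03 for all genes tested. A log2 fold change below 0 was found for 29 of 41 members (70.7%) and for 55.2% of all genes tested. In 37 members (90.2%) the fold change lay within 0.5 of 0 on the log2 scale, against 91.0% of all genes tested, and the 4 exceptions were Hsp30, Hsp98/Hsp104, Hsp90 and Sti1.

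**Figure D1:**
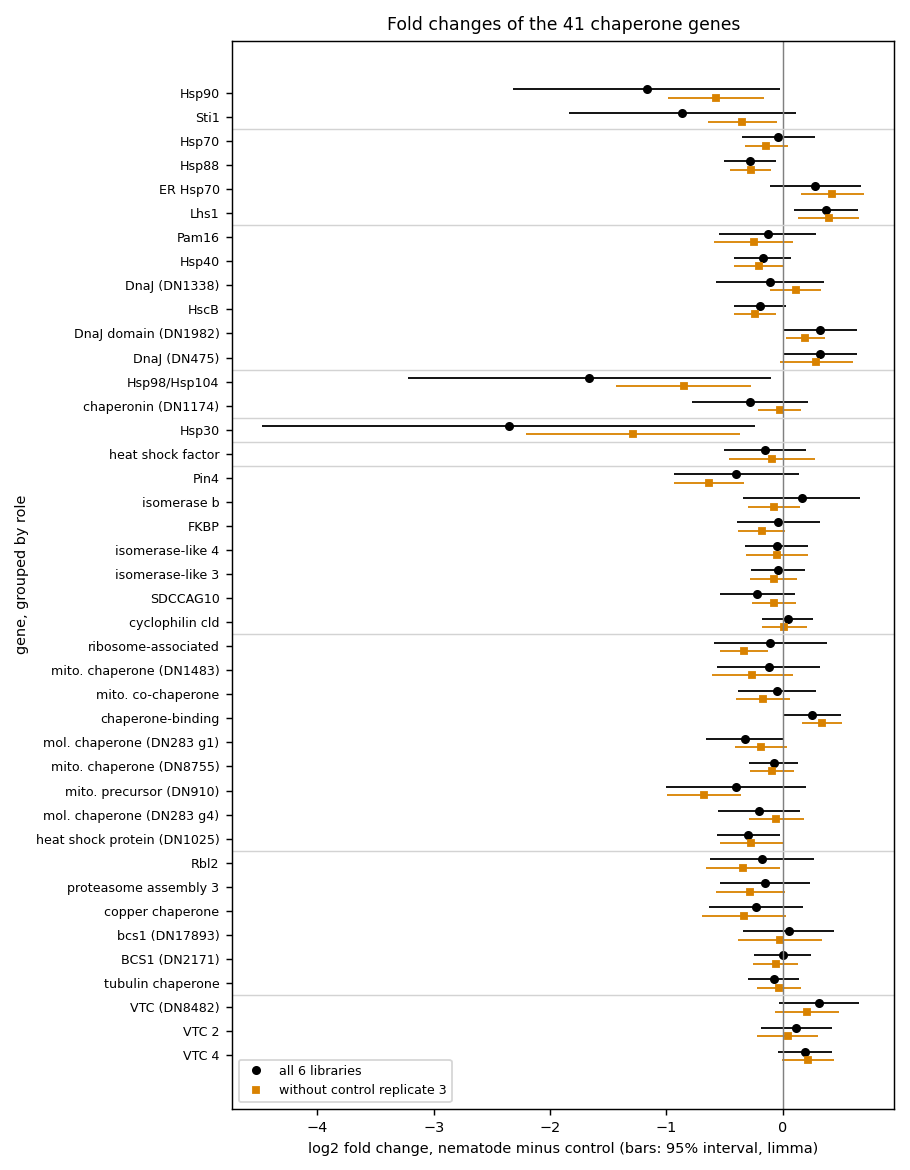
Log2 fold change of each of the 41 genes, nematode minus control, with its 95% interval from limma, for all 6 libraries (black circles) and without control replicate 3 (orange squares). Genes are grouped by role. Hsp30, Hsp98/Hsp104, Hsp90 and Sti1 lie far to the left with wide intervals, and their values come closer to 0 without that library.

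Hsp30 had the lowest log2 fold change of all 4568 genes tested. Its mean over all 6 libraries, 3340 rescaled TPM, was the highest of the members, carried by control replicates 2 and 3: with nematodes it averaged 664, below the row described as hsp70 chaperone at 909. The description does not say which protein it is: in Neurospora the name Hsp30 belongs to a small heat shock protein, which holds unfolded chains, and in Saccharomyces cerevisiae to a protein of the plasma membrane. TRINITY_DN2618_c0_g2 (heat shock protein 30) had 653, 843 and 495 rescaled TPM in nematode replicates 1 to 3, against 968, 2614 and 14467 in control replicates 1 to 3. All nematode libraries lay below all controls, and control replicate 3 was 5.53-fold above the next highest library. The log2 fold change was -2.35 ± 0.89 SE (95% interval -4.47 to -0.24; adjusted p = 0.421, limma). On the log2 scale its SD was 0.38 among the nematode libraries and 1.97 among the controls, where it ranked 4th from the top of the 4568 genes.

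The disaggregase Hsp98/Hsp104 (TRINITY_DN1174_c0_g1), which in yeast and Neurospora works with Hsp70 to dissolve aggregates, had the same order of controls. It had 193, 193 and 168 rescaled TPM with nematodes, against 239, 469.7 and 1784 in the controls (log2 fold change -1.66 ± 0.66 SE, adjusted p = 0.441, limma). The groups did not overlap, and control replicate 1 lay nearest to the nematode libraries. A row described as a heat shock protein chaperonin (TRINITY_DN1174_c0_g3) carries the same assembly cluster number as Hsp98/Hsp104, so the values of these rows may share reads. It had 369, 394 and 356 rescaled TPM with nematodes and 374, 388 and 639 in the controls, so the groups overlapped and control replicate 3 alone was high.

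In the Hsp90 system, the chaperone and its adaptor ranked the 6 libraries in the same order. Hsp90 (TRINITY_DN397_c0_g1), which matures kinases and transcription factors, had 622, 661 and 541 rescaled TPM with nematodes, against 734, 1119 and 3084 in the controls (log2 fold change -1.17 ± 0.48 SE, adjusted p = 0.456, limma). Sti1 (TRINITY_DN1386_c0_g1), the adaptor between Hsp70 and Hsp90, had 214, 226 and 198 with nematodes, against 235, 314 and 787 in the controls (log2 fold change -0.86 ± 0.41 SE, adjusted p = 0.529, limma). For both genes the groups did not overlap, and control replicate 1 was the control nearest to the nematode libraries.

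**Figure D2:**
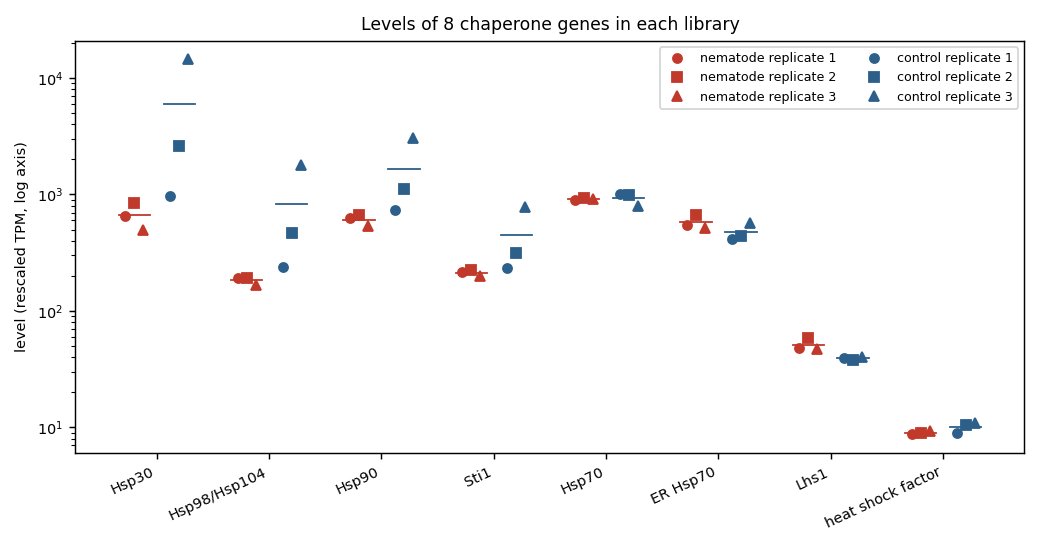
Level of 8 chaperone genes in rescaled TPM on a log axis, with 1 point per library and a line at each group mean (red, nematode; blue, control; n = 3 each). In the 4 genes on the left, control replicate 3 lies far above every other library, with Hsp30 at 14467. The rows drawn as Hsp70 (TRINITY_DN1291_c0_g1), ER Hsp70, Lhs1 and the heat shock factor show no such point. An hsp70-like row with a best hit outside Ophiostomatales (TRINITY_DN1955_c0_g1), not drawn, had 6758 in control replicate 3, against 1274 and 2056 in control replicates 1 and 2.

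These 4 genes were the only members at least 2-fold higher in control replicate 3 than in every other library, and 0 members stood out by 2-fold above or below in any of the other 5 libraries. Such a high point in control replicate 3 was not particular to chaperones. It was found in 4 of 41 members (9.76%) and 6 of 80 ubiquitin and proteasome genes (7.5%), against 2.58% of all genes tested. Of other folding genes 0 of 8 had it, of ER quality control genes 0 of 7 and of trehalose genes 0 of 2. Among the 6, rows TRINITY_DN550_c1_g1, TRINITY_DN550_c1_g3 and TRINITY_DN550_c1_g4 carry the same assembly cluster number, so their values may share reads. The ubiquitin ligase HUWE1 (TRINITY_DN550_c1_g4) had a log2 fold change of -0.31 with all 6 libraries and 0.33 without control replicate 3. The 4 chaperones and HUWE1 were singled out after their values were seen. The summed level of these 4 was 1683, 1922 and 1403 rescaled TPM with nematodes, against 2176, 4517 and 20121 in the controls. They made up 14.4%, 17.7% and 12.9% of the set's summed level in the nematode libraries and 17.3%, 29.3% and 69.0% in the controls. The other 37 members summed to 9979, 8909 and 9501 rescaled TPM with nematodes and to 10436, 10876 and 9041 in the controls. The groups then overlapped and control replicate 3 was not the highest. Both follow in part from leaving out the 4 genes that were chosen for standing out in that library.

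**Figure D3:**
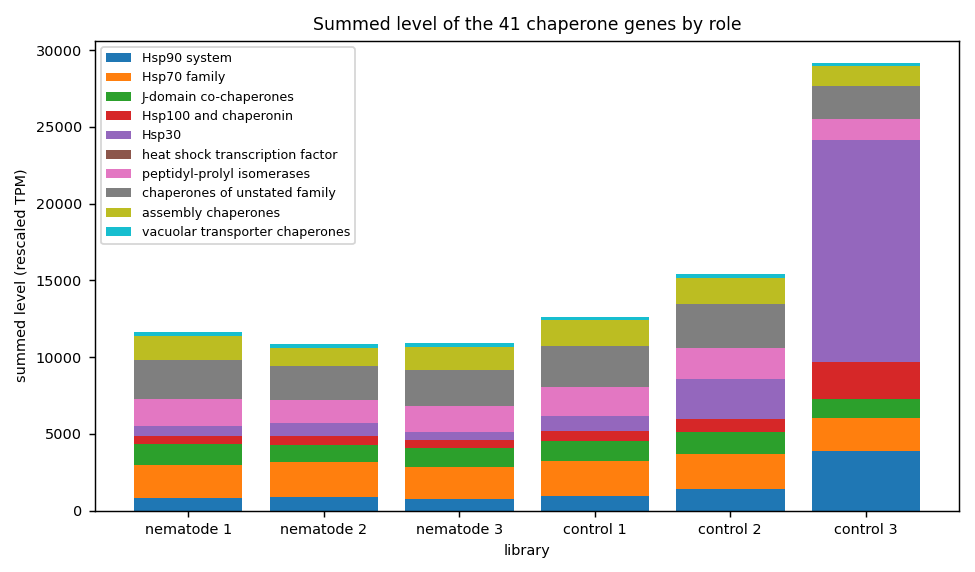
Summed level of the 41 genes in each library in rescaled TPM, stacked by role. The sum was 10832 to 11662 in the nematode libraries, 12612 and 15393 in control replicates 1 and 2 and 29162 in control replicate 3, where Hsp30 took the largest block.

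Without control replicate 3 the 4 genes kept values below 0 and did not pass the threshold. Hsp30 then stood at a log2 fold change of -1.29 (adjusted p = 0.0700), Hsp98/Hsp104 of -0.85 (adjusted p = 0.0619), Hsp90 of -0.57 (adjusted p = 0.0717) and Sti1 of -0.35 (adjusted p = 0.105), all from limma. The set's count became 1 higher and 3 lower, where 7.67% of all genes tested were higher and 6.15% lower. The genes called were none of these 4. A chaperone-binding protein (TRINITY_DN2037_c1_g1) was higher, with a log2 fold change of 0.34 (adjusted p = 0.0327). The isomerase Pin4 (TRINITY_DN1611_c0_g1; -0.63, adjusted p = 0.0279), a mitochondrial heat shock protein precursor (TRINITY_DN910_c0_g1; -0.68, adjusted p = 0.0267) and a ribosome-associated chaperone (TRINITY_DN22125_c0_g1; -0.33, adjusted p = 0.0458) were lower. With all 6 libraries these 4 genes had an adjusted p of 0.456, 0.596, 0.640 and 0.882.

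The heat shock transcription factor (TRINITY_DN617_c3_g1), which binds the promoters of heat shock genes, was the member of lowest level. It had 8.75, 8.92 and 9.24 rescaled TPM with nematodes and 8.86, 10.5 and 10.9 in the controls. Control replicate 3 was 1.04-fold above the next highest library, and the log2 fold change was -0.15 ± 0.15 SE (95% interval -0.50 to 0.20; adjusted p = 0.764, limma). It had no high point in control replicate 3 like that of Hsp30, Hsp98/Hsp104, Hsp90 and Sti1.

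The Hsp70 family held the member with the smallest p. Lhs1 (TRINITY_DN17143_c0_g1), in yeast an Hsp70-related partner of the main ER Hsp70, had 47.6, 58.3 and 47.4 rescaled TPM with nematodes, against 39.4, 37.8 and 40.0 in the controls. The groups did not overlap, and the log2 fold change was 0.37 ± 0.12 SE (95% interval 0.10 to 0.65; unadjusted p = 0.0151 and adjusted p = 0.306, limma). The ER Hsp70 (TRINITY_DN13688_c1_g1), which binds proteins entering the ER, had 545, 667 and 516 with nematodes, against 415, 439 and 572 in the controls (log2 fold change 0.28 ± 0.16 SE, adjusted p = 0.608, limma). Control replicate 3 lay among the nematode libraries, and its omission gave log2 fold changes of 0.43 for the ER Hsp70 (adjusted p = 0.0517) and 0.40 for Lhs1 (adjusted p = 0.0582, limma).

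Hsp88 (TRINITY_DN1741_c0_g1), which in Neurospora belongs to the Hsp110 branch of the family, varied little within groups. It had 619, 613 and 629 rescaled TPM with nematodes, against 767, 743 and 751 in the controls. The groups did not overlap, and the log2 fold change was -0.28 ± 0.09 SE (unadjusted p = 0.0205 and adjusted p = 0.330, limma). The row described as hsp70 chaperone (TRINITY_DN1291_c0_g1) had 889, 929 and 908 with nematodes and 1013, 999 and 798 in the controls (log2 fold change -0.04, 95% interval -0.35 to 0.27). The sign was not stable: the value was 0.11 when scaled by the class sum, 0.070 with quantile normalization and 0.021 without control replicate 1. Its groups overlapped, and control replicate 3 was the lowest of the 6 libraries. The description does not say which Hsp70 it is. Heat shock rows with best hits outside Ophiostomatales carry the same assembly cluster number as the hsp70 chaperone row, so the values may share reads. They are TRINITY_DN1291_c0_g2 and TRINITY_DN1291_c0_g6, described as SSB1, and TRINITY_DN1291_c0_g4, described as heat shock protein-like.

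J-domain proteins stimulate the ATPase of Hsp70. The 6 rows of J-domain and J-like proteins had log2 fold changes of -0.20 to 0.33. DnaJ protein TRINITY_DN475_c1_g2 had 18.5, 19.6 and 22.4 rescaled TPM with nematodes, against 17.5, 15.3 and 14.9 in the controls (0.33 ± 0.13 SE, adjusted p = 0.456, limma). The DnaJ domain protein TRINITY_DN1982_c0_g1 had 101, 102 and 104 with nematodes, against 90.05, 88.9 and 67.3 in the controls (0.32 ± 0.13 SE, adjusted p = 0.456, limma). Both were higher in every nematode library than in every control. HscB (TRINITY_DN9095_c0_g1), which serves iron-sulfur cluster transfer in mitochondria, had 97.5, 94.4 and 89.1 with nematodes, against 113, 109.8 and 99.9 in the controls (-0.20 ± 0.09 SE, adjusted p = 0.532, limma). Pam16 (TRINITY_DN2947_c0_g2), a J-like regulator of the mitochondrial import motor, was the most abundant of the group at 735 ± 124 with nematodes and 803 ± 123 in the controls (SD, n = 3 each), with overlapping groups.

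**Figure D4:**
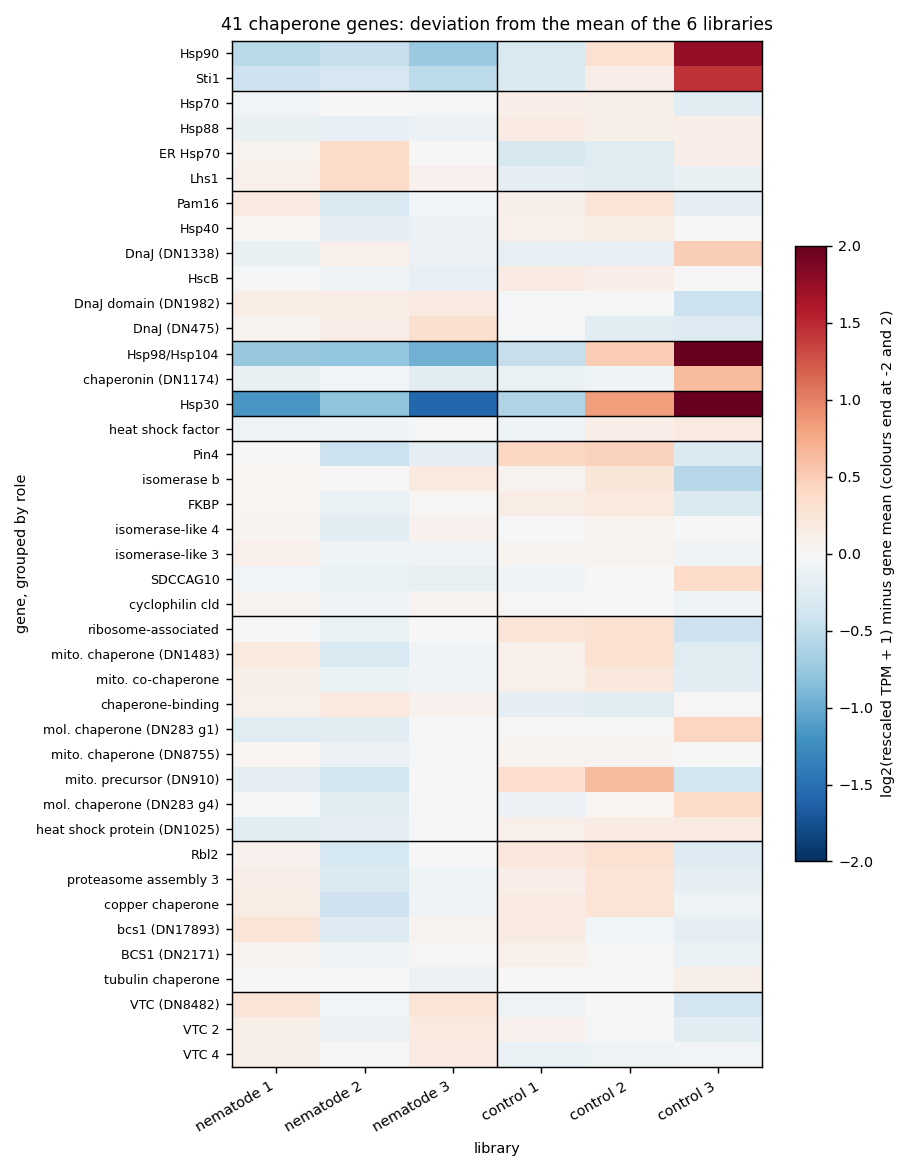
Deviation of each of the 41 genes from its mean over the 6 libraries, on the log2(rescaled TPM + 1) scale, with libraries in columns and genes grouped by role in rows. The dark red cells of Hsp30, Hsp98/Hsp104, Hsp90 and Sti1 fall in control replicate 3, while most other rows are pale in all libraries.

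The 7 peptidyl-prolyl isomerases, which speed the turning of proline bonds during folding, had log2 fold changes of -0.40 to 0.16, and their groups overlapped in all 7. Pin4 (TRINITY_DN1611_c0_g1) had the highest mean over the 6 libraries and the lowest fold change, with 487, 359 and 424 rescaled TPM with nematodes, against 643, 668 and 395 in the controls (-0.40 ± 0.23 SE, adjusted p = 0.596, limma). Isomerase b (TRINITY_DN862_c0_g1) was at the other end, with 475, 464 and 527 with nematodes and 486, 547 and 311 in the controls (0.16 ± 0.21 SE, adjusted p = 0.820, limma), and with nematodes it averaged 489, above Pin4 at 424. Without control replicate 3 its log2 fold change was -0.073 (adjusted p = 0.613, limma). In both genes control replicate 3 was well below the other controls, at 0.603 of their mean. The FKBP-type isomerase, of the family that binds the drug FK506, averaged 308 ± 20.5 with nematodes and 318 ± 55.2 in the controls (SD, n = 3 each).

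Among chaperones whose family the description does not give, 8 of 9 (88.9%) had a log2 fold change below 0, against 55.2% of all genes tested. The exception was the chaperone-binding protein TRINITY_DN2037_c1_g1, with 228, 245 and 225 rescaled TPM with nematodes, against 186, 183 and 216 in the controls (0.26 ± 0.10 SE, adjusted p = 0.456, limma), and no overlap between groups. The mitochondrial precursor TRINITY_DN910_c0_g1 had 85.5, 74.8 and 97.4 with nematodes, against 124, 152 and 76.2 in the controls (-0.40 ± 0.25 SE, adjusted p = 0.640, limma). Control replicate 3 was at 0.551 of the mean of the other controls and overlapped the nematode libraries. The ribosome-associated chaperone TRINITY_DN22125_c0_g1 had 924, 855 and 928 with nematodes and 1121, 1160.5 and 702 in the controls, with control replicate 3 the lowest of all 6 libraries. Among the 8, the molecular chaperone rows TRINITY_DN283_c2_g1 and TRINITY_DN283_c2_g4 carry the same assembly cluster number, so their values may share reads.

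Rows matched by the word chaperone also include proteins that assemble complexes or have other duties. The 6 assembly chaperones had log2 fold changes of -0.23 to 0.05, and their groups overlapped in each. The most abundant was Rbl2 (TRINITY_DN2122_c0_g1), which in yeast binds beta-tubulin, at 374 ± 58.4 rescaled TPM with nematodes and 426 ± 83.2 in the controls (SD, n = 3 each). The lowest in fold change was the copper chaperone of cytochrome c oxidase (TRINITY_DN2135_c0_g1), at 251 ± 47.6 with nematodes and 293 ± 38.3 in the controls (SD, n = 3 each). The highest was a bcs1 row (TRINITY_DN17893_c0_g1; in yeast Bcs1 inserts the Rieske protein into respiratory complex III), at 243 ± 43.6 with nematodes and 233 ± 29.8 in the controls (SD, n = 3 each). Its log2 fold change was 0.051, and -0.023 without control replicate 3.

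The 3 vacuolar transporter chaperone rows, named for a complex that in yeast makes polyphosphate at the vacuole, all had a log2 fold change above 0. TRINITY_DN8482_c0_g1 had 150.0, 121 and 152 rescaled TPM with nematodes, against 117, 127 and 96.4 in the controls (0.31 ± 0.15 SE, adjusted p = 0.510, limma). Subunit 4 (TRINITY_DN2861_c0_g1), the catalytic subunit in yeast, had 44.5, 41.1 and 46.2 with nematodes, against 37.2, 38.3 and 39.4 in the controls (0.19 ± 0.10 SE, adjusted p = 0.561, limma), with no overlap.

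Over the whole set, all 3 nematode libraries lay above all 3 controls in 5 members (12.2%) and below them in 8 (19.5%), against 10.5% and 7.79% of all genes tested. The 8 included Hsp30, Hsp98/Hsp104, Hsp90 and Sti1, which stood out in control replicate 3. The others were Hsp88, HscB, a molecular chaperone row (TRINITY_DN283_c2_g1) and a heat shock protein row (TRINITY_DN1025_c0_g1). The members were more abundant than most: their median level was 187 rescaled TPM, against 72.0 for all genes tested, and 73.2% averaged at least 100 rescaled TPM, against 38.8%. Within groups their median SD on the log2 scale was 0.11 in the nematode libraries and 0.23 in the controls, against 0.13 and 0.23 for all genes tested. The ratio of nematode replicate 1 to the mean of nematode replicates 2 and 3 was compared in deposited TPM. Its median was -0.43 on the log2 scale in the 41 members and -0.52 in Ophiostomatales-hit features, against 0.38 in features found in the nematode libraries alone. The 5th to 95th percentiles were -0.66 to -0.15 in the members, -0.85 to -0.22 in Ophiostomatales-hit features and -0.38 to 0.94 in features of the nematode libraries alone, so these ranges overlapped. Above the 95th percentile of the Ophiostomatales-hit features, where 5% of those features lie by definition, lay 6 of 41 members. These were Pin4, Pam16, the bcs1 row TRINITY_DN17893_c0_g1, the copper chaperone, a proteasome assembly chaperone (TRINITY_DN1057_c0_g1) and a mitochondrial chaperone row (TRINITY_DN1483_c0_g2). Above the 5th percentile of features of the nematode libraries alone lay 11 of 41 members.

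Chaperone keywords also matched 65 rows whose best hit lies outside Ophiostomatales, and 38 of these reached 1 TPM in each nematode library but in none of the controls. Over the whole table, 13300 of 26694 features did so. That table includes the 4613 Ophiostomatales-hit rows, so the 2 shares are not like for like and show no excess among chaperone rows. A further 5 of the 65 rows had at least 1 TPM in all controls. Among these was an hsp70-like row with a Phaeoacremonium hit (TRINITY_DN1955_c0_g1), which had 1054, 1247 and 985 rescaled TPM with nematodes, against 1274, 2056 and 6758 in the controls, scaled by the same factors. It had the library order of Hsp90, with control replicate 3 at 4.06-fold the mean of the other controls. A chaperonin 10-like row with an Aspergillus hit (TRINITY_DN7924_c0_g1) had 582, 497 and 277 with nematodes and 256, 239.9 and 537 in the controls, so its groups overlapped. In these 2 rows control replicate 3 was at least 2-fold above the mean of the other controls. It was at 0.775 of that mean in the copper chaperone ATX1 (TRINITY_DN1090_c0_g1), 0.920 in the isomerase cyp15 (TRINITY_DN295_c0_g1) and 1.46 in a DnaJ row (TRINITY_DN2672_c0_g1). The hsp70-like and chaperonin 10-like rows were named after their values were seen, and none of the 5 rows was tested.

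Of other folding genes that the keywords miss, 0 of 8 were higher and 0 lower in the nematode libraries (limma, adjusted p under 0.05; 0 at an unadjusted p under 0.05), with a median log2 fold change of -0.13. They included 5 subunits of the cytosolic chaperonin that folds actin and tubulin. Its delta subunit (TRINITY_DN3524_c0_g2) had 444, 437 and 477 rescaled TPM with nematodes, against 567, 558 and 486 in the controls (-0.24 ± 0.11 SE, adjusted p = 0.485, limma), and its eta subunit (TRINITY_DN752_c0_g1) 213, 207 and 215, against 244, 247 and 214 (-0.15 ± 0.10 SE, adjusted p = 0.649, limma). The groups did not overlap for delta and overlapped for eta. Without control replicate 3, delta was lower (-0.31, adjusted p = 0.0449, limma).

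ER quality control genes numbered 7, of which 0 were higher and 0 lower (limma, adjusted p under 0.05), 3 (42.9%) were above 0 at an unadjusted p under 0.05, against 7.07% of all genes tested, and the median log2 fold change was 0.20. Of these 7, 3 were L-psp endoribonuclease rows that matched a keyword without being known ER genes, and 1 of the 3 at an unadjusted p under 0.05 was such a row (TRINITY_DN22735_c0_g1). Sec62 (TRINITY_DN4142_c0_g1), part of the machinery through which proteins enter the ER, had 189, 211 and 194 rescaled TPM with nematodes, against 136, 142 and 127 in the controls, with no overlap (0.55 ± 0.09 SE, adjusted p = 0.0735, limma). An oligosaccharyl transferase subunit (TRINITY_DN895_c0_g1), which attaches sugar chains to proteins in the ER, had 77.7, 85.1 and 80.4 with nematodes, against 56.5, 61.1 and 62.9 in the controls, with no overlap (0.42 ± 0.09 SE, adjusted p = 0.149, limma). Without control replicate 3 both passed, with log2 fold changes of 0.51 (adjusted p = 0.0129) and 0.46 (adjusted p = 0.0206, limma), where 7.67% of all genes tested were higher. That endoribonuclease row also passed then (0.52, adjusted p = 0.0355), against 0.55 (adjusted p = 0.153, limma) with all 6 libraries.

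Trehalose, a sugar that protects fungal proteins under stress, is made and broken down by enzymes with 2 rows here, of which 0 were higher and 0 lower (limma; 0 at an unadjusted p under 0.05). Trehalose phosphate synthase (TRINITY_DN5235_c0_g2) had 242, 266 and 206 rescaled TPM with nematodes and 193, 189 and 305 in the controls, and trehalase (TRINITY_DN5976_c0_g1) 73.5, 85.8 and 76.0 with nematodes and 76.4, 62.1 and 78.9 in the controls. Both overlapped between groups. Control replicate 3 had the highest synthase level of the 6 libraries, and without it the synthase stood at 0.32 (adjusted p = 0.0911, limma), against 0.086 with all 6. Of 80 ubiquitin and proteasome genes, the other main route of protein quality control, 0 were higher and 0 lower (limma; 1 higher and 2 lower at an unadjusted p under 0.05), with a median log2 fold change of -0.09. The 2 of smallest p were a ubiquitin thiolesterase (TRINITY_DN2177_c0_g1) at 0.36 ± 0.09 SE (adjusted p = 0.198, limma) and a ubiquitin interaction motif protein (TRINITY_DN1182_c0_g1) at -0.30 ± 0.10 SE (adjusted p = 0.338, limma). Without control replicate 3, 1 was higher and 5 were lower, where 7.67% and 6.15% of all genes tested were. The 1 higher was the thiolesterase, at 0.32 (adjusted p = 0.0322, limma), and the 5 lower had log2 fold changes of -0.37 to -0.28.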

How the data were processed

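RNA of 3 nematode and 3 control libraries was summarised by the authors in 1 deposited table of TPM, in which each of the 6 library columns sums to 1e+06. Row names look like those of the Trinity assembler, per the file headers; which aligner and counting tool were used is not given in the sources used here. The deposited group means were not used. Rows with an Ophiostomatales best hit were divided by the median ratio of each library to the rows' geometric mean, and class totals were set to average 1e+06. Values were analysed as log2(rescaled TPM + 1), which understates changes of low genes, with limma 3.58.1 in R 4.3.3 (eBayes with trend) on rows with at least 1 rescaled TPM in at least 3 libraries. Benjamini-Hochberg adjustment ran over the 4568 rows tested, with a threshold of 0.05. The scripts were tested on simulated data. An exact two-sided permutation of 3 against 3 cannot go below 0.1.

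Members, lists and alternatives were chosen with earlier results of these data known. Genes named were those past the threshold, in each role the most abundant and, with at least 4 members, the highest and lowest fold change, the 5 highest and 5 lowest among members averaging at least 10 rescaled TPM, the heat shock factor, and in each other list the 2 of smallest p. The rule took 22 members; others are named as exceptions after their values were seen. Roles were assigned by hand from the descriptions. Alternatives covered pseudocount, filter, scaling, replicate block, eBayes settings and leaving out each library. Sequences were not used here.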

Additional observations from a re-analysis of the deposited data

How the results depend on the processing

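The count of 0 members higher and 0 lower held under pseudocounts of 0.1 and 5, all 3 other filters, TMM and quantile normalization, scaling by the class sum, robust eBayes, eBayes without trend, the replicate block and every omission of a library except control replicate 3. It ended in TPM as deposited, where the 41 members had 0 higher and 37 lower with a median log2 fold change of -0.93, beside 3695 of all Ophiostomatales-hit genes (82.8%) with a median of -0.82. There, 8 of the related folding genes, 3 of ER quality control, 2 of trehalose and 74 of ubiquitin and proteasome genes were lower. The deposited scale gave negative values to genes above 0 after rescaling: ER Hsp70 -0.55, Lhs1 -0.43, the bcs1 row TRINITY_DN17893_c0_g1 -0.78, DnaJ domain protein TRINITY_DN1982_c0_g1 -0.50, the chaperone-binding protein -0.57, DnaJ TRINITY_DN475_c1_g2 -0.44, the vacuolar transporter row TRINITY_DN8482_c0_g1 -0.51, isomerase b -0.67, Sec62 -0.28, the oligosaccharyl transferase subunit -0.39, trehalose phosphate synthase -0.74, trehalase -0.70 and the ubiquitin thiolesterase -0.46. The class makes up a smaller share of TPM in the nematode libraries, which that scale does not remove. Scaling by the class sum gave 48 higher and 0 lower over the class, 2 higher among ER quality control genes and a member median of 0.029. After median-ratio rescaling the class totals were 903052 to 981946 in the nematode libraries and 1024851 to 1076587 in the controls. The class sum sets these totals equal. Why they differed was not tested. The row described as hsp70 chaperone (0.11 and 0.070), the ribosome-associated chaperone (0.037 and 0.010) and Pam16 (0.013 and 0.0064) moved above 0 with the class sum and with quantile normalization, with no call.

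The replicate block gave 12 higher and 0 lower over the class, against 28 and 2, and the robust fit 1 lower. The labels do not say whether same-numbered libraries were paired. Same-numbered libraries deviated with correlations of 0.15, -0.43 and -0.28 over the 4568 genes, and not every library correlated best with its own number. The deviations were taken within each small group and depend on one another, so these values cannot decide on pairing. Omissions of 1 library, with the filter repeated or the tested genes kept, gave 7 to 349 higher and 0 to 281 lower over the class. The upper ends came without control replicate 3, and each of the other 5 omissions gave 7 to 16 higher and 0 lower. Among members they gave 0 to 1 higher and 0 to 3 lower, in related folding genes 0 to 1 lower, in ER quality control 0 to 3 higher, and in ubiquitin and proteasome genes 0 to 1 higher and 0 to 5 lower. The hsp70 chaperone ranged from -0.14 to 0.021, the bcs1 row from -0.065 to 0.20, the ribosome-associated chaperone from -0.33 to 0.017, trehalose phosphate synthase from -0.040 to 0.32 and isomerase b from -0.073 to 0.32. TPM keeps no depth, so no counting error can be given.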
